A study of Mus musculus with 48 samples.

Results

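Collagens are the secreted and membrane-bound triple-helix proteins of the extracellular matrix, and their genes were taken here as every gene of the expression table whose symbol has the form Col, a number, a and a number. That rule found 44 genes of 21558. By textbook class they comprised 11 chains of fibrillar collagens, 6 chains of the basement membrane collagen type IV and 27 other collagens. RNA was sequenced from the hypothalamus of 144 male C57BL/6N mice in 48 libraries, and tissue of 3 mice of 1 condition and time was mixed for each library. The libraries form 8 series of 6. The 4 late series, labelled as mice aged 3 months although the design text gives an age of 2 months for all, were hind limb unloaded under noise of 85 dBA at 0.9 atm, free-moving under the same noise and low pressure, hind limb unloaded in quiet at 10 dBA and normal pressure, and free-moving in that quiet. The 4 early series, labelled as aged 2 months, were all kept in quiet at normal pressure and were 2 series of unloaded and 2 of free-moving mice, with the same labels within each condition and here called a and b. Hind limb unloading lifts the hind paws off the floor and is used as a ground model of weightlessness. The noise always came with the low pressure, so the effects of the pair cannot be told apart. Each late condition is a single series, and what set those series apart otherwise cannot be told apart from the condition. Each series holds 1 library for each of the numbers 1, 5, 9, 13, 17 and 21 in the library titles, whose unit the labels do not state.

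Fibrillar collagens such as types I and III build the tensile fibres of connective tissue, and in the brain they are made mainly in the meninges and by fibroblasts around larger vessels. Type IV collagen forms the sheet-like network of basement membranes, which in the brain lie around blood vessels and under the pia. The remaining classes include collagens that sit on fibrils (FACIT collagens, types IX, XII, XVI and XX here), the microfibrils of type VI, the multiplexins XV and XVIII of basement membrane zones, and transmembrane collagens, of which Col25a1 is a neuronal one. Much of this matrix is therefore made by cells that are a minority in hypothalamic tissue. In bulk tissue, fewer cells of a type and less RNA per cell cannot be told apart.

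Levels are given as deposited RPKM (reads scaled to transcript length and library size), a scale per length on which genes can be compared. Tests were run with limma on log2(RPKM + 0.5) over the 13685 genes with a mean of at least 0.5 RPKM, 1 fit over all libraries with terms for series and title number. A gene is said to be called, to rise or to fall where its Benjamini-Hochberg adjusted p over all genes tested was below 0.05. Estimated depth was 28.4 to 55.2 M reads a library. The labelled tissue was checked by 8 hypothalamic marker genes, which summed to between 1520 and 11240 RPKM in every library and were lowest in the late quiet series. In 1 library, number 9 of early unloaded series a, summed anterior pituitary markers reached 12140 RPKM, against 2.26 to 31.25 RPKM elsewhere. The counts of called collagens in comparisons that include early unloaded mice are given with and without it.

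Of the 44 collagens, 32 passed the filter, made up of 10 fibrillar chains, 3 type IV chains and 19 others. Summed over all members, the mean level was 149.0 RPKM. Other collagens held 56.5% of that sum, fibrillar collagens 24.8% and type IV collagen 18.7%. The most abundant member was Col4a2, a chain of the main vascular basement membrane collagen, at 17.9 ± 5.33 RPKM (SD over 48 libraries). It was followed by the FACIT chain Col9a2 at 14.1 ± 3.23 RPKM and the microfibril chain Col6a1 at 11.9 ± 4.52 RPKM. The most abundant fibrillar chain was Col1a2, of type I collagen, at 9.22 ± 1.76 RPKM, ahead of Col11a2 of type XI at 7.43 ± 1.71 RPKM. Col4a2, Col9a2 and Col6a1, neighbours in the order of levels, each lay within 1 SD of the next, while Col1a2 and Col11a2 differed by slightly more than 1 SD of either. The 12 members that did not pass averaged between 0.0388 RPKM (Col10a1, at 0 in 15 libraries) and 0.475 RPKM (Col24a1). They comprised Col24a1 among the fibrillar chains, Col4a3, Col4a4 and Col4a6 among the type IV chains, and Col9a1, Col10a1, Col14a1, Col17a1, Col19a1, Col22a1, Col28a1 and Col6a6. Just inside the threshold lay Col13a1 at 0.613, Col8a1 at 0.618 and Col6a4 at 0.640 RPKM. Type IV thus held both the most abundant member and some of the least abundant ones. On GRCm38.p6 with GENCODE M21, the genes of the abundant pair, Col4a1 (chr8:11198423-11312826, minus strand) and Col4a2 (chr8:11312805-11449287, plus strand), start head to head.

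The series that stood apart was late, quiet and free-moving. Summed collagen RPKM per library was 88.6, 100.3 and 135.9 there (lowest, median and highest). It was 132.4, 152.6 and 155.7 in late quiet unloaded mice, 137.3, 183.6 and 188.9 in late free-moving mice under noise, and 134.2, 155.3 and 178.0 in late unloaded mice under noise. In the early series it ran over 122.8 to 180.1 in the 12 unloaded and 113.2 to 176.1 in the 12 free-moving libraries. Of the late quiet free-moving libraries, numbers 9, 13, 17 and 21 were below all 42 others, number 1 was above 1 of those, and number 5 lay among them. That series had the lowest mean of the 8 for 23 of the 32 collagens tested and for 23.3% of all genes tested. It had the highest mean for 2 collagens, Col25a1 and Col8a1, and for 44.2% of all genes tested.

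**Figure D1:**
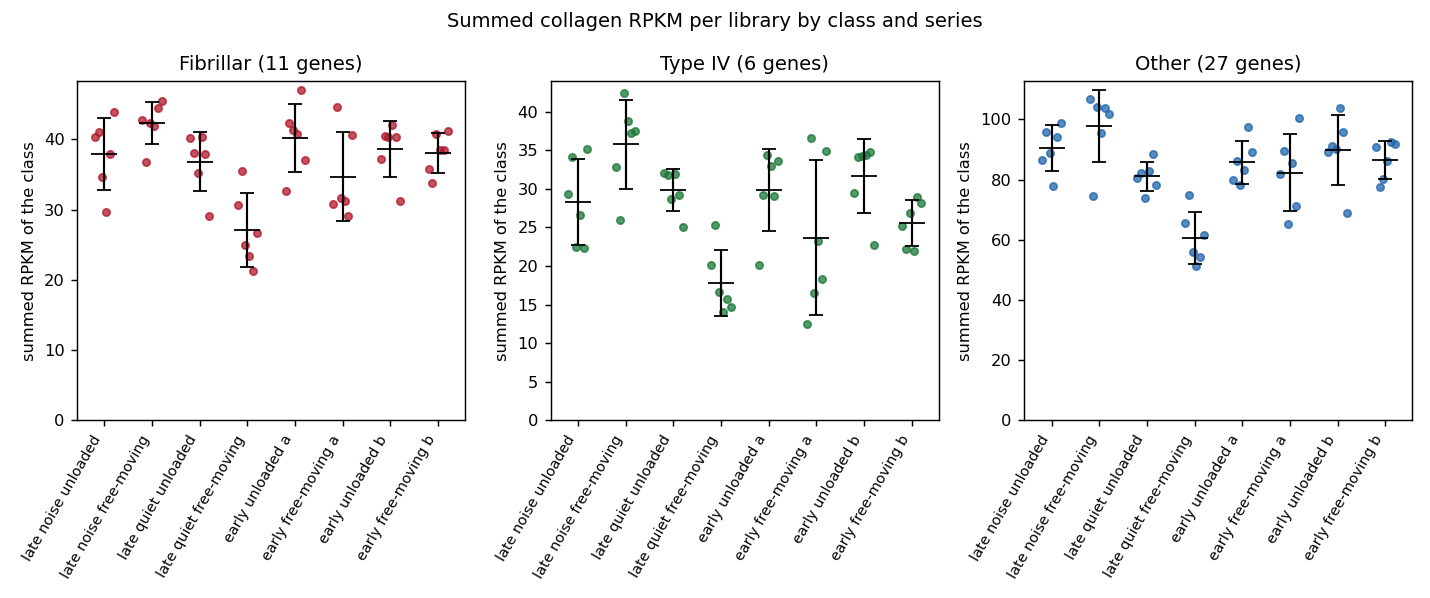
Summed RPKM of the fibrillar, type IV and other collagens in each library (points, left to right by title number) of the 8 series, with mean and SD (bars, n = 6 each). In all 3 panels the late quiet free-moving series has the lowest mean.

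The sums of the classes moved in the same direction at this level, though the share of type IV collagen moved as well. Fibrillar collagens summed to 36.8 ± 4.24 RPKM in late quiet unloaded mice and 27.1 ± 5.25 RPKM in late quiet free-moving mice (SD, n = 6 each). Type IV collagen summed to 29.8 ± 2.74 and other collagens to 81.0 ± 4.90 RPKM in the unloaded mice, against 17.8 ± 4.28 and 60.6 ± 8.76 RPKM in the free-moving mice. The share of collagen RPKM held by fibrillar chains stayed between 24.1% and 25.8% in the means of all 8 series. The type IV share was lowest in early free-moving series a at 16.3% ± 4.10 and late quiet free-moving mice at 16.7% ± 1.51, and highest in late free-moving mice under noise at 20.3% ± 1.74.

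Below the class sums the members split. In 6 of the 32 collagens tested, every late quiet free-moving library lay below every one of the other 42 libraries: Col2a1, Col5a3, Col7a1, Col9a2, Col18a1 and Col26a1. Over all genes tested 3.96% lay entirely below in this way and 10.1% entirely above. Col25a1 lay entirely above, at 12.2 to 16.0 RPKM, against 2.42 to 11.7 RPKM in the other libraries. Genes of both directions are shown by the 150 bases before the RefSeq transcription start, from the RefSeq promoter table of build GRCm38.p6. Col16a1, Col11a2, Col5a3 and Col7a1 were picked among the members with their lowest series mean in late quiet free-moving mice. Col25a1 and Col8a1 had their highest series mean there. Of these, Col16a1, Col11a2 and Col8a1 overlapped with libraries of other series. Capitals mark the GC box core GGGCGG (or CCGCCC on the other strand) and the CCAAT box (or ATTGG), searched on both strands, and no 2 matches overlapped. The windows are chr4:130047690-130047839 (Col16a1, plus strand), chr17:34038988-34039137 (Col11a2, plus), chr9:20815068-20815217 (Col5a3, minus), chr9:108953436-108953585 (Col7a1, plus), chr3:130180695-130180844 (Col25a1, plus) and chr16:57754738-57754887 (Col8a1, minus).
Col16a1: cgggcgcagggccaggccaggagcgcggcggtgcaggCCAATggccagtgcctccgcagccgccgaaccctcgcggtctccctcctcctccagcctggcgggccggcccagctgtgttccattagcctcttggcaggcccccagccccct
Col11a2: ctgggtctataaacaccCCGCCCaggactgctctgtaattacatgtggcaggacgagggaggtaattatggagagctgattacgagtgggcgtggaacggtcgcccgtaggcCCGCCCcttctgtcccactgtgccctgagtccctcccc
Col5a3: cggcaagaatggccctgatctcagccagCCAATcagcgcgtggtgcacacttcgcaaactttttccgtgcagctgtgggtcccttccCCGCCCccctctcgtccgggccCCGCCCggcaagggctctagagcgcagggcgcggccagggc
Col7a1: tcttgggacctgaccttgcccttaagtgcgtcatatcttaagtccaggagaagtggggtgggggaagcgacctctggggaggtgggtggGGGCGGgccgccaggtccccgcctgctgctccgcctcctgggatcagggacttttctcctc
Col25a1: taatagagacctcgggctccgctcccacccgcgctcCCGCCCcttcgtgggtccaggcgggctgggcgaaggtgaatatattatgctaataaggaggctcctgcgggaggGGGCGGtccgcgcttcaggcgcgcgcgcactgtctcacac
Col8a1: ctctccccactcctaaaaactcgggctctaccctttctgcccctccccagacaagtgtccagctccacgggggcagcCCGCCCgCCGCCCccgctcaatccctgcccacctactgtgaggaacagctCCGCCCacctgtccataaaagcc
All 6 windows are rich in G and C, between 60% and 74.7%, on both sides of the split. GGGCGG stood in 19 of the 38 windows of the 35 collagens in the table, and in 28.6% of all 32843 windows of that length. The collagen windows were richer in G and C, with a median of 62.7% against 54.0% for all windows, and the counts were not adjusted for that. CCAAT stood in 8 of the 38 and in 24.5% of all. Col8a1 held 3 GC box cores and Col25a1 held 2, as did Col11a2 and Col5a3, while Col7a1 held 1 and Col16a1 had a CCAAT box alone. In these 6 chosen windows GC box cores thus stood on both sides of the split. Whether either motif separates low from high members over all collagen windows was not tested.

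**Figure D2:**
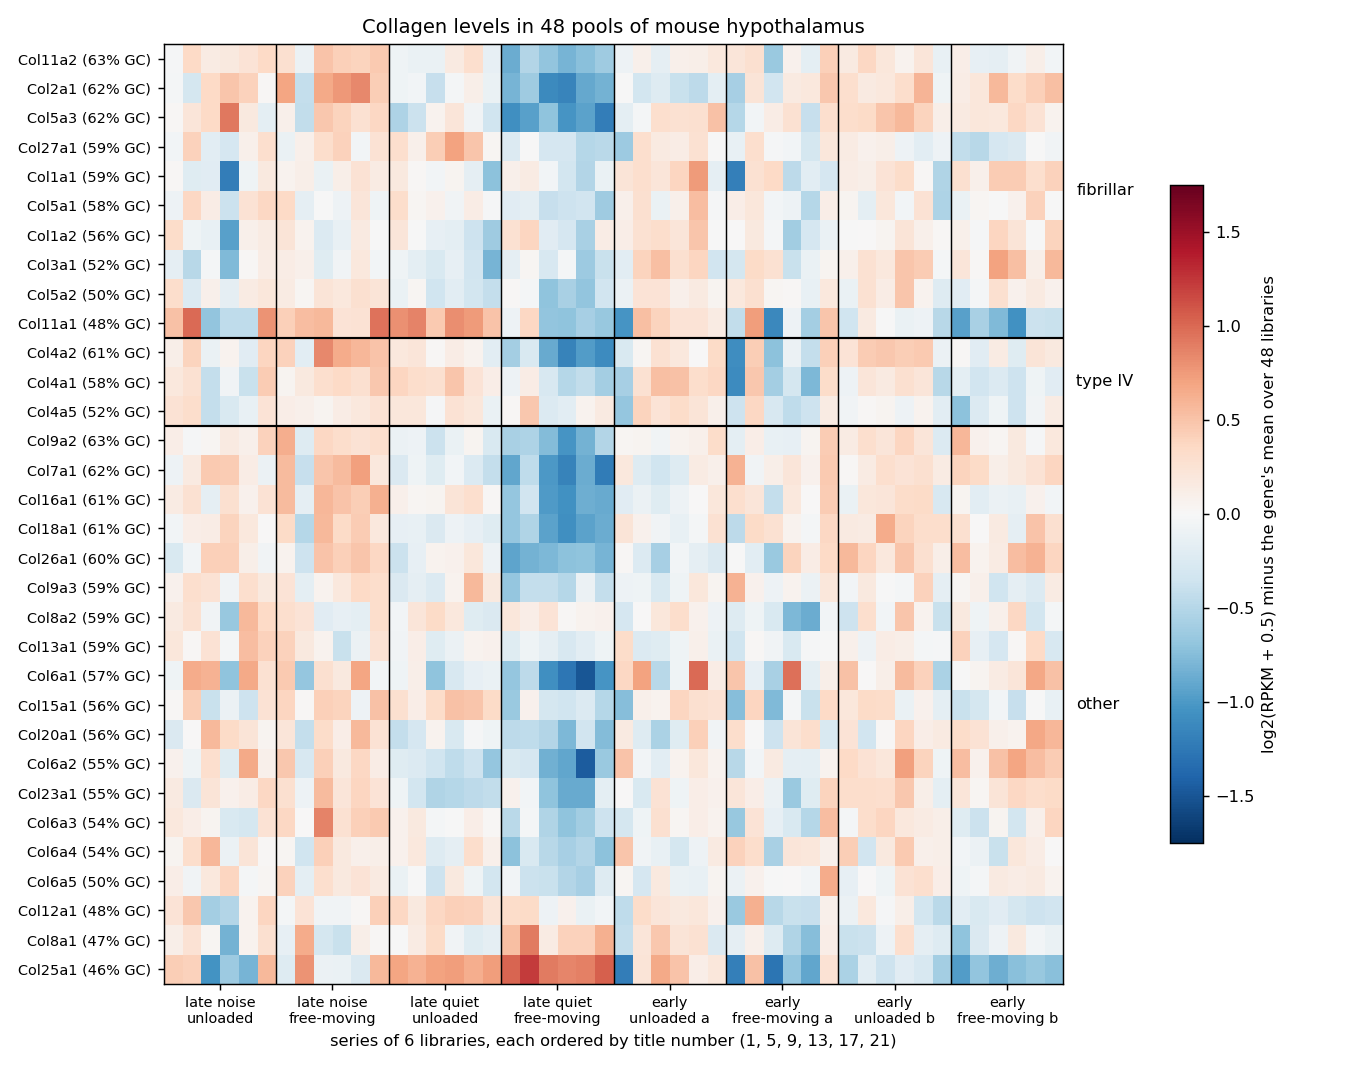
Level of the 32 collagens tested in each of the 48 libraries, as log2(RPKM + 0.5) minus the gene's own mean, in rows ordered by class and by GC content of the transcript. The late quiet free-moving block is low in most GC-rich members and high in Col25a1 and Col8a1, whereas Col1a1 and Col1a2 show no such block.

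In late quiet mice, 18 of the 32 collagens were higher with unloading and 0 lower, where 12.8% of all genes tested were called (9.38% higher and 3.38% lower). They were 6 of 10 fibrillar chains, 2 of 3 type IV chains and 10 of 19 others. At an unadjusted p below 0.05 there were 20 collagens higher and 1 lower, where 27.8% of all genes tested had such a p. The median log2 difference of the collagens was 0.48, against 0.02 for all genes tested. In 14 collagens every unloaded library lay above every free-moving one, as it did in 11.7% of all genes tested, and in 1, Col25a1, it lay below, as in 13% of them.

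Among the fibrillar chains, 6 of 10 rose, Col2a1, Col11a1, Col11a2, Col5a1, Col5a3 and Col27a1, while Col1a1, Col1a2, Col3a1 and Col5a2 were not called, so that type V stands on both sides. Col11a2 was at 6.46, 6.72 and 8.99 RPKM (lowest, median and highest) in late quiet unloaded mice, against 3.74, 4.21 and 4.92 RPKM in late quiet free-moving mice. All 6 unloaded libraries were above all 6 free-moving ones, and the log2 difference was 0.71 ± 0.12 (standard error, limma adjusted p = 0.00014). Col5a3, a chain of type V collagen, was at 1.52, 2.07 and 2.92 RPKM in the unloaded series, against 0.778, 0.983 and 1.30 RPKM in the free-moving series. It too did not overlap, and its log2 difference was 0.81 ± 0.13 (limma adjusted p = 6.1e-05). Col11a1 rose by the largest log2 difference of any collagen tested in this comparison, 1.09 ± 0.23 (limma adjusted p = 0.0014). Col2a1, the chain of cartilage type II collagen, rose by 0.81 ± 0.16 on the log2 scale (limma adjusted p = 0.00092). Type I collagen gave no such difference. Col1a2 was at 5.71, 8.04 and 10.51 RPKM in the unloaded series, against 5.97, 8.89 and 11.9 RPKM in the free-moving series. Those libraries overlapped over nearly their whole range, with a log2 difference of -0.14 (2 standard errors either side, -0.43 to 0.15). Col1a1 differed by 0.01 on the log2 scale (-0.37 to 0.40) and Col3a1, of type III collagen, by -0.06 (-0.38 to 0.27). Col5a2, another type V chain, differed by 0.16 (limma adjusted p = 0.42).

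Both abundant type IV chains rose, by unequal amounts. Col4a2 was at 14.9, 18.2 and 19.8 RPKM in late quiet unloaded mice, against 7.29, 8.675 and 14.02 RPKM in late quiet free-moving mice. The series did not overlap, although the highest free-moving library came within 1 RPKM of the lowest unloaded one, and the log2 difference was 0.91 ± 0.18 (limma adjusted p = 0.00097). Col4a1, its partner in the triple helix, was at 8.53, 9.67 and 11.2 RPKM in the unloaded series, against 4.99, 6.00 and 8.57 RPKM in the free-moving series. These overlapped by a narrow margin in 1 library of each, and the log2 difference was 0.60 ± 0.18 (limma adjusted p = 0.025). Col4a5, of the minor type IV network, differed by 0.07 on the log2 scale (-0.22 to 0.35). The ratio of Col4a1 to Col4a2 RPKM was 0.545 ± 0.038 in the unloaded series, against 0.673 ± 0.044 in the free-moving series (SD, n = 6 each).

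Of the other collagens, Col16a1, a FACIT collagen, had the smallest adjusted p of all members. It was at 8.83, 9.12 and 10.8 RPKM in late quiet unloaded mice, against 3.90, 4.52 and 6.77 RPKM in late quiet free-moving mice. Every unloaded library was above every free-moving one, and the log2 difference was 0.92 ± 0.13 (limma adjusted p = 5.8e-06). The type IX chain Col9a2 was at 10.49, 12.7 and 14.2 RPKM in the unloaded series, against 6.47, 8.55 and 9.50 RPKM in the free-moving series. It did not overlap either and rose by 0.55 ± 0.12 on the log2 scale, and its partner Col9a3 rose by 0.45 ± 0.12. Col6a1, of the type VI microfibrils, rose by 0.79 ± 0.24 (limma adjusted p = 0.024), with overlap between the series. Col18a1, the precursor of endostatin, rose by 0.67 ± 0.14, Col26a1 by 0.75 ± 0.14 and the anchoring fibril collagen Col7a1 by 0.73 ± 0.15. Col25a1 ran the other way without being called: it was at 10.25, 10.99 and 11.3 RPKM in the unloaded series, against 12.2, 13.3 and 16.0 RPKM in the free-moving series. Those series did not overlap, yet the log2 difference of -0.31 ± 0.23 had an adjusted p of 0.41 in limma, whose standard error is pooled over all 8 series.

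Most genes that shape collagen were not called. Of 24 tested genes of collagen modification and processing, 4 rose, 0 fell and 20 were not called. Their median log2 difference was 0.09, against 0.02 for all genes tested. Of all genes tested 9.38% rose and 3.38% fell, the shares to set beside each list in this paragraph. The risen ones were P3h3 and P3h1, of the prolyl 3-hydroxylase family, Bmp1, the procollagen C-proteinase, and Plod3, a lysyl hydroxylase. P3h3 was at 14.9, 17.8 and 19.5 RPKM in late quiet unloaded mice, against 6.99, 8.93 and 13.4 RPKM in late quiet free-moving mice, a log2 difference of 0.87 ± 0.15. Bmp1 rose by 0.56 ± 0.12 and P3h1 by 0.39 ± 0.12 on the log2 scale. Of 13 basement membrane partners 2 rose, the laminin chain Lama5 by 0.55 ± 0.11 and the proteoglycan agrin (Agrn) by 0.62 ± 0.17. Of 7 collagen receptors 1 rose, the integrin subunit Itga10, by 0.49 ± 0.13. Of 11 small leucine-rich proteoglycans and fibril partners, and of 8 genes of TGF-beta signalling, 0 were called in either direction. Of 7 collagen-cleaving proteases and inhibitors 1 fell, the membrane-type protease Mmp14, by 0.44 on the log2 scale.

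Markers of the cells that make collagen did not all follow. All 10 markers of meningeal and perivascular fibroblasts were detected, 0 were called, and their summed level was 80.5 to 121 RPKM in late quiet unloaded mice and 77.7 to 130.4 RPKM in late quiet free-moving mice. Of 10 endothelial markers 3 rose (Ly6c1, Esam and Cldn5), with sums of 111.1 to 148.8 RPKM in the unloaded series and 76.2 to 114.1 RPKM in the free-moving series. Of 8 tested mural cell markers 1 rose, with sums of 35.6 to 45.9 RPKM in the unloaded series and 29.8 to 38.1 RPKM in the free-moving series. Ependymal and tanycyte markers, of which 0 of 9 were called, summed to 125.4 to 142.0 RPKM in the unloaded series and 103.7 to 120.0 RPKM in the free-moving series. The mitochondrial share of RPKM was 12.7% to 16.6% in the unloaded series and 8.95% to 13.5% in the free-moving series. With that share as a covariate 19 collagens rose and 1 fell, where 22.5% of all genes rose and 7.1% fell. Astrocyte markers summed to 283.5 to 334.2 RPKM in the unloaded series and 362.1 to 404.5 RPKM in the free-moving series, without overlap, with 1 of 6 called lower (Aqp4) and 0 higher. Of 8 hypothalamic markers 2 rose (Avp and Agrp), with sums of 2313 to 3725 RPKM in the unloaded series and 1520 to 2520 RPKM in the free-moving series. The part of the marked cells in the result was not tested. Without title number 13 the count of risen collagens was 12 (3.38% of all genes rose), and without 17 it was 13 (4.55%).

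**Figure D3:**
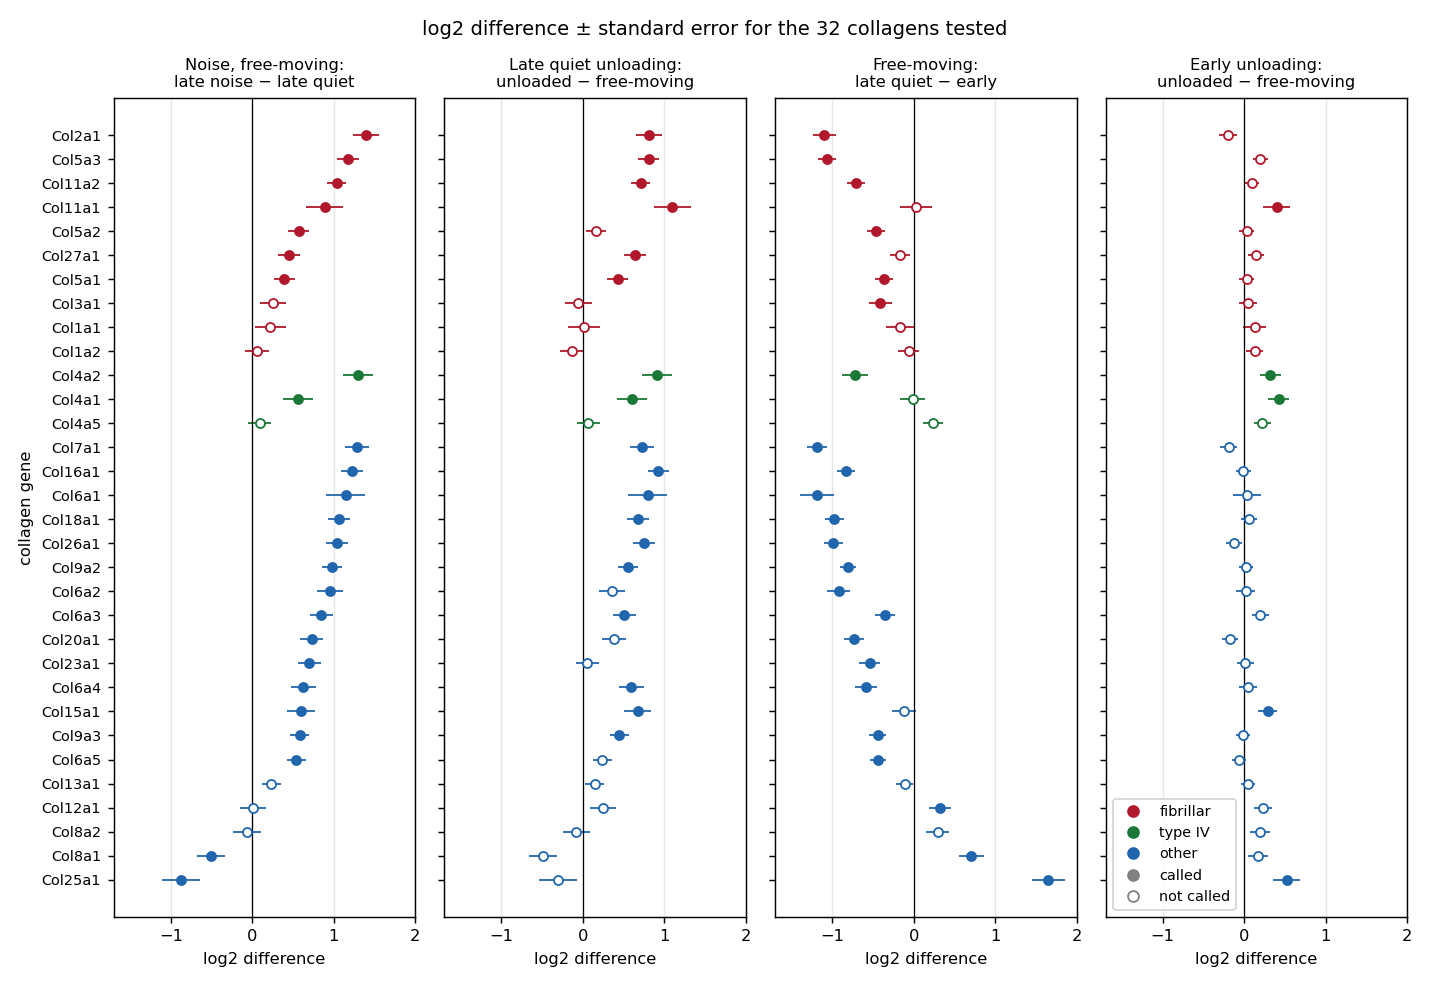
Log2 difference of each of the 32 collagens tested, with its standard error, in 4 comparisons, coloured by class and filled where called. Col2a1, Col5a3, Col16a1 and Col7a1 are high in the panels for noise and for late quiet unloading and low in the panel of late quiet against early free-moving mice, Col1a1 and Col1a2 are near 0, and Col25a1 is reversed; these 3 panels share the late quiet free-moving series.

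Noise with low pressure was compared with quiet in late free-moving mice. Under noise 23 of the 32 collagens were higher and 2 lower, where 57.6% of all genes tested were called (21.2% higher and 36.4% lower). The risen ones were 7 of 10 fibrillar chains, 2 of 3 type IV chains and 14 of 19 others, all 5 tested type VI chains among them. The median log2 difference was 0.61 for collagens and -0.15 for all genes tested. The late quiet free-moving libraries stand on the lower side here as in late quiet unloading, so the comparisons are not independent. In 12 collagens every noise library lay above every quiet one, as in 12.8% of all genes tested, and in 1, Col25a1, below, as in 19.8%.

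The type I chains again stayed within their spread. Col1a2 was at 7.61, 9.25 and 10.6 RPKM in late free-moving mice under noise, against 5.97, 8.89 and 11.9 RPKM in late quiet free-moving mice, and the noise libraries lay inside the quiet range. Its log2 difference was 0.06 (-0.23 to 0.35), that of Col1a1 was 0.22 (-0.16 to 0.61) and that of Col3a1 was 0.26 (-0.07 to 0.58). Among the fibrillar chains, Col2a1 had the largest log2 difference in this comparison. Col2a1 was at 1.305, 3.36 and 3.83 RPKM under noise, against 0.584, 0.832 and 1.08 RPKM in quiet, without overlap, a log2 difference of 1.40 ± 0.16 (limma adjusted p = 8.9e-09). Col5a3 followed with 1.17 ± 0.13, Col11a2 with 1.03 ± 0.12 and Col11a1 with 0.89.

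Col4a2 was at 14.9, 24.8 and 30.8 RPKM in late free-moving mice under noise, against 7.29, 8.675 and 14.02 RPKM in late quiet free-moving mice. The libraries did not overlap, and the log2 difference was 1.29 ± 0.18 (limma adjusted p = 2.8e-07). Col4a1 rose by less, 0.56 ± 0.18 (limma adjusted p = 0.0083), and the ratio of Col4a1 to Col4a2 was 0.411 ± 0.10 under noise and 0.673 ± 0.044 in quiet (SD, n = 6 each). Col16a1 was at 7.74, 12.7 and 13.7 RPKM under noise, against 3.90, 4.52 and 6.77 RPKM in quiet, a log2 difference of 1.22 ± 0.13 (limma adjusted p = 1.3e-09). Col7a1 rose by 1.28 ± 0.15, Col6a1 by 1.14 ± 0.24, Col18a1 by 1.07 ± 0.14, Col26a1 by 1.03 ± 0.14, Col9a2 by 0.98 ± 0.12, Col6a3 by 0.85 ± 0.14 and Col9a3 by 0.58 ± 0.12. Without any 1 title number, the count of called collagens stayed at 25, where 48.6% to 58.3% of all genes were called.

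The 2 collagens that fell were Col25a1 and Col8a1; Col8a1, a short-chain network collagen, is named because the count is small and was chosen with its value seen. Col25a1 was at 5.45, 6.06 and 11.7 RPKM in late free-moving mice under noise, against 12.2, 13.3 and 16.0 RPKM in late quiet free-moving mice. Every noise library was below every quiet one, and the log2 difference was -0.88 ± 0.23 (limma adjusted p = 0.0016). Col8a1 fell by 0.51 on the log2 scale (limma adjusted p = 0.012), with 0.328, 0.540 and 1.203 RPKM under noise and 0.692, 0.997 and 1.53 RPKM in quiet. The mitochondrial share of RPKM was 15.1% to 38.8% under noise and 8.95% to 13.5% in quiet. With that share as a covariate 25 collagens rose and 0 fell, where 37.9% of all genes rose and 11.2% fell.

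Fibroblast markers rose in this comparison. Of the 10, 8 were higher and 1 lower, and the summed level was 135.1 to 215.3 RPKM under noise and 77.7 to 130.4 RPKM in quiet. Igf2 rose by 1.04 and Crabp2 by 1.09 on the log2 scale, while Pdgfra, which oligodendrocyte precursors also express, fell by 1.10. Endothelial sums were 118.2 to 141.2 RPKM under noise and 76.2 to 114.1 RPKM in quiet, with 3 of 10 markers higher and 3 lower. Of 24 modification and processing genes 7 rose and 2 fell, with P3h3 again the gene of smallest p among them (log2 difference 1.30 ± 0.15). Of 11 small leucine-rich proteoglycans and fibril partners 7 rose and 1 fell, Ogn by 0.97 and Fmod by 0.78 on the log2 scale, and Sparc lower by a log2 difference of -0.58. Of 13 basement membrane partners 5 rose and 3 fell. Of 9 ependymal and tanycyte markers 6 rose and 1 fell, of 6 neuron markers 5 fell, and of 6 astrocyte markers 1 rose and 5 fell. Of 6 thalamus markers 0 rose and 4 fell, and of 6 tested choroid plexus markers 0 rose and 4 fell. Of 8 hypothalamic markers 4 rose and 1 fell, with sums of 3112 to 7067 RPKM under noise and 1520 to 2520 RPKM in quiet. The part of these cells and regions in the collagen differences was not tested.

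Under noise, unloading called 0 of 32 collagens, where 0.0146% of all genes tested (2 genes) were called by limma. At an unadjusted p below 0.05 there were 3 collagens, all lower (Col6a3, Col16a1 and Col2a1), where 6.25% of all genes tested had such a p. In 0 collagens did the unloaded libraries lie entirely above or below the free-moving ones, and in 0.0365% and 0.263% of all genes tested they did. The collagens' median log2 difference was -0.12, beside -0.11 for all genes tested. Col16a1 was at 7.71, 10.1 and 10.6 RPKM in late unloaded mice under noise, against 7.74, 12.7 and 13.7 RPKM in late free-moving mice under noise, with a log2 difference of -0.28 (-0.54 to -0.02). The series overlapped over most of their range. Col4a2 differed by -0.36 (-0.73 to 0.002) and Col1a2 by -0.11 (-0.41 to 0.18). Col4a1 differed by -0.27 (-0.63 to 0.10), Col9a2 by -0.14 (-0.38 to 0.10) and Col11a2 by -0.12 (-0.36 to 0.12), so that the upper bound of each lies below its difference in quiet. Col1a1 (-0.34), Col6a1 (0.09), Col9a3 (0.01) and Col25a1 (-0.29) were not called either.

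The difference between the 2 unloading effects, under noise minus in quiet, was tested in the same fit. It was lower than 0 in 14 of 32 collagens and higher in 0, where 4.38% of all genes tested were called (3.90% lower and 0.482% higher). These were 5 of 10 fibrillar, 2 of 3 type IV and 7 of 19 other collagens. Col16a1 had an interaction of -1.20 ± 0.18 on the log2 scale (limma adjusted p = 7.6e-05) and Col4a2 one of -1.27 ± 0.26 (limma adjusted p = 0.0036). Col11a1 differed by -1.47, Col2a1 by -1.15, Col15a1 by -0.97, Col7a1 by -0.91, Col26a1 by -0.90, Col6a3 by -0.90, Col4a1 by -0.86, Col11a2 by -0.83 and Col9a2 by -0.70. Col1a1, Col1a2, Col6a1, Col9a3 and Col25a1 were not called. Without title number 13 or without 17 the count was 2 (0.431% and 0.46% of all genes called), and without 9 it was 7 (1.43%). Of the processing genes P3h3 (-0.93), Bmp1 (-0.69) and P3h1 (-0.66) were called lower as well, and Lama5 (-0.64) and Agrn (-0.97) among the basement membrane partners. Of 10 endothelial markers 3 were lower in this contrast (Cldn5, Esam and Ly6c1), and their part in it was not tested.

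In unloaded mice, 5 collagens were higher and 2 lower under noise with low pressure, where 52.3% of all genes tested were called (6.75% higher and 45.6% lower). The risen ones were Col23a1 (log2 difference 0.50 ± 0.15), a transmembrane collagen, Col5a3 (0.43 ± 0.13), Col6a2 (0.52 ± 0.16), Col7a1 (0.37 ± 0.15) and Col9a2 (0.28 ± 0.12). Col25a1 fell, at 2.92, 6.49 and 10.0 RPKM under noise, against 10.25, 10.99 and 11.3 RPKM in quiet, a log2 difference of -0.86 ± 0.23 (limma adjusted p = 0.0046). Col11a1 fell by 0.58. Every noise library lay above every quiet one in 2 collagens, Col18a1 and Col6a2, and in 2.89% of all genes tested, and below in 1, Col25a1, and in 11.4%. The mitochondrial share was 10.49% to 50.04% under noise and 12.7% to 16.6% in quiet. The median log2 difference was 0.11 for collagens and -0.28 for all genes tested. Col1a1 (-0.13), Col1a2 (0.09), Col4a1 (-0.30), Col4a2 (0.03), Col6a1 (0.44), Col9a3 (0.14), Col11a2 (0.21) and Col16a1 (0.02) were not called. Fibroblast marker sums were 104.6 to 259.6 RPKM under noise and 80.5 to 121 RPKM in quiet, with 5 of 10 markers higher and 1 lower. Of 10 endothelial markers 5 were lower and 0 higher, of 8 mural cell markers 4 lower and 0 higher, of 5 oligodendrocyte precursor markers 5 lower, of 6 neuron markers 5 lower and 0 higher, and of 6 astrocyte markers 4 lower and 1 higher. Endothelial sums were 98.8 to 133.1 RPKM under noise and 111.1 to 148.8 RPKM in quiet. The part of these cells in the result was not tested. This count varied with the processing, as did the share of all genes called. With quantile normalization 19 collagens were called (18 higher and 1 lower), as were 43% of all genes. With mitochondrial share as covariate 0 collagens and 0% of all genes were called. With 1 title number left out between 2 and 13 collagens were called. These were 13 without 5 (56.4% of all genes), 4 without 17 (26.3%), 2 without 9 (19.7%) and 2 without 13 (9.36%).

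Late quiet free-moving mice were also compared with the 12 early free-moving libraries, again with the late quiet free-moving series in the comparison. Of the 32 collagens 3 were higher and 20 lower, where 78.5% of all genes tested were called (60.5% higher and 18.0% lower). The median log2 difference was -0.44 for collagens and 0.43 for all genes tested. The lower ones were 6 of 10 fibrillar, 1 of 3 type IV and 13 of 19 other collagens. Late and early series differ in age and period together, and these cannot be told apart.

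Col7a1 was at 0.204, 0.351 and 0.713 RPKM in late quiet free-moving mice, against 1.08, 1.44 and 2.02 RPKM in early free-moving mice, without overlap. Its log2 difference was -1.19 ± 0.13 (limma adjusted p = 1e-10). Col5a3 fell by 1.06, Col26a1 by 0.98, Col18a1 by 0.97 and Col2a1 by 1.09 on the log2 scale. Col6a1 fell by 1.19 and Col6a2 by 0.92, Col16a1 by 0.83, Col9a2 by 0.80, Col4a2 by 0.72, Col11a2 by 0.71 and Col9a3 by 0.44. Col4a1 (-0.01), Col1a1 (-0.17) and Col1a2 (-0.06) were not called. Within type IV the chains part here, Col4a2 falling without a call for its partner Col4a1. The ratio of Col4a1 to Col4a2 was 0.673 ± 0.044 (SD, n = 6) in late quiet free-moving mice and 0.404 ± 0.048 (SD, n = 12) in early free-moving mice.

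The 3 higher ones were Col25a1, Col8a1 and Col12a1, a FACIT collagen. The calls of Col8a1 (log2 difference 0.71) and Col12a1 (0.32) did not hold with the trend of GC and length removed, where Col12a1 was called lower (-0.72) and Col8a1 was at -0.095. Col25a1 was at 12.2, 13.3 and 16.0 RPKM in late quiet free-moving mice, against 2.42, 3.76 and 9.59 RPKM in early free-moving mice. It did not overlap, and the log2 difference of 1.65 ± 0.20 (limma adjusted p = 2.3e-09) was the largest in size of any collagen tested in this comparison. Of the 24 processing genes 11 were higher and 7 lower, P3h3 by a log2 difference of -1.24 and Bmp1 by one of -0.79 among the lower. Fibroblast markers summed to 77.7 to 130.4 RPKM in late quiet free-moving mice and 106.8 to 276.9 RPKM in early free-moving mice, with 5 of 10 lower and 1 higher. The mitochondrial share was 8.95% to 13.5% in the late and 18.7% to 62.4% in the early libraries. With it as a covariate 24 collagens were lower and 1 higher, where 29.4% of all genes were lower and 15.9% higher. Other marker lists moved as well. Of 7 blood cell markers 6 were lower and 0 higher, and of 9 ependymal and tanycyte markers 6 were lower and 3 higher. Of 6 neuron markers 5 were higher and 0 lower, of 6 astrocyte markers 5 higher and 1 lower, and of 10 endothelial markers 6 higher and 3 lower. Neuron markers summed to 1053 to 1303 RPKM in the late and 651.2 to 1047 RPKM in the early libraries. The part of these cells in the result was not tested.

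Between unloaded mice, late quiet against early, 4 collagens were higher and 8 lower, where 47.3% of all genes tested were called (38.8% higher and 8.53% lower) and the median of all genes was 0.21. Col25a1 was higher by 0.82 ± 0.20 and Col11a1 by 0.73 ± 0.20 on the log2 scale, and Col12a1 and Col27a1 were the other two. The lower ones were Col6a2 (-0.58), Col3a1 (-0.51), Col23a1 (-0.50), Col5a3 (-0.45), Col18a1 (-0.35), Col1a2 (-0.33), Col5a2 (-0.33) and Col9a2 (-0.27). Of the 12, 4 were called lower in the fibrillar class and 2 higher, so that this class did not move 1 way. Col1a1 (-0.28), Col4a1 (0.16), Col4a2 (-0.13), Col6a1 (-0.43), Col9a3 (0.02), Col11a2 (-0.09) and Col16a1 (0.10) were not called. Without title number 9 the count was 6 (43.2% of all genes called). Without the library of high pituitary markers it was 14, 4 higher and 10 lower (42.6% and 9.11% of all genes). With quantile normalization 2 collagens were higher and 14 lower (24.5% and 22.2% of all genes). With mitochondrial share as covariate 0 were higher and 7 lower (6.17% and 11%). Fibroblast markers summed to 80.5 to 121 RPKM in late quiet unloaded mice and 123 to 237.5 RPKM in early unloaded mice, without overlap, with 5 of 10 lower and 1 higher. Of 10 endothelial markers 4 were higher and 0 lower, of 8 mural cell markers 3 higher and 0 lower, of 6 neuron markers 4 higher and 0 lower, and of 6 astrocyte markers 4 higher and 1 lower. The part of these cells in the result was not tested.

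Early unloading, both unloaded series against both free-moving ones, gave 5 collagens higher and 0 lower. Of all genes tested 52.8% were called (50.9% higher and 1.88% lower), with a median log2 difference of 0.23, so the share of collagens called was below that of all genes. The risen ones were Col25a1 (0.52 ± 0.17, limma adjusted p = 0.011), Col4a1 (0.42 ± 0.13, limma adjusted p = 0.0094), Col11a1 (0.40 ± 0.16), Col4a2 (0.32 ± 0.13) and Col15a1 (0.29 ± 0.12). Col4a1 was at 5.04, 9.30 and 11.4 RPKM in the 12 early unloaded libraries, against 3.36, 6.36 and 11.05 RPKM in the 12 early free-moving libraries, overlapping over most of the range. Col1a1 (0.13), Col1a2 (0.13), Col11a2 (0.09), Col9a2 (0.02), Col6a1 (0.03), Col16a1 (-0.01) and Col9a3 (-0.02) were not called. The direction depended on the scaling. With quantile normalization 0 collagens were higher and 7 lower, beside 11.1% and 9.23% of all genes. With the trend of GC and length removed 0 were higher and 11 lower (11.3% and 9.09% of all genes). With mitochondrial genes removed 1 was higher and 1 lower (21.8% and 5.24%). With mitochondrial share as covariate 0 were called, and 0.00731% of all genes. The mitochondrial share was 11.2% to 51.0% in the unloaded libraries and 18.7% to 62.4% in the free-moving ones. Of 10 endothelial markers 5 were higher and 0 lower, of 8 mural cell markers 3 higher and 0 lower, of 6 neuron markers 4 higher and 0 lower, and of 10 fibroblast markers 1 higher and 0 lower. Endothelial sums were 93.1 to 147.3 RPKM in the unloaded libraries and 92.6 to 139.7 RPKM in the free-moving ones. The part of these cells in the result was not tested. Without the library of high pituitary markers 2 collagens were called, and 41.7% of all genes. Without title number 9, 13 or 17 the count was 0, where 0.153%, 30% and 0% of all genes were called. Series a alone gave 5 called (42% of all genes) and series b alone 0 (0.0219%), though the difference between these pairs of series was not tested.

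Whether unloading acted differently in the late and early quiet series was tested as the late minus the early unloading difference. It was higher in 15 collagens and lower in 2, where 33.5% of all genes tested were called (7.98% higher and 25.6% lower) with a median of -0.22. The 15 were 5 of 10 fibrillar, 1 of 3 type IV and 9 of 19 other collagens. Col16a1 differed by 0.93 ± 0.16 on the log2 scale (limma adjusted p = 0.00014), Col2a1 by 1.01 ± 0.20, Col7a1 by 0.92 ± 0.18, Col26a1 by 0.88 ± 0.17 and Col11a2 by 0.61 ± 0.15. Col4a2 differed by 0.59 ± 0.22 (limma adjusted p = 0.039), Col6a1 by 0.76, Col9a2 by 0.53 and Col9a3 by 0.46. Col4a1 (0.18), Col1a1 (-0.11) and Col1a2 (-0.27) were not called. The lower ones were Col25a1 (-0.83 ± 0.29) and Col8a1 (-0.66 ± 0.21). With the mitochondrial share as a covariate 15 were higher and 0 lower, beside 10% and 2.9% of all genes. Without title number 13 or without 17 the count was 9 (16.5% and 13.3% of all genes called), and without 21 it was 10 (30.5%). Without the library of high pituitary markers it was 16, 14 higher and 2 lower (7% and 21% of all genes). Of 9 ependymal and tanycyte markers 4 were higher and 1 lower in this contrast, of 6 astrocyte markers 5 were lower, of 6 neuron markers 4 were lower and of 7 blood cell markers 4 were higher. Their part in it was not tested.

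The early series of the same labels give a partial measure of how far series differ with no labelled cause. The contrast averages b minus a over the free-moving and the unloaded pair, so opposite shifts cancel. Comparisons among the late series set 1 series against 1 other, and this contrast can understate the scatter between single series. Series b was higher than series a in 3 collagens and lower in 0, where 10.4% of all genes tested were called (3.72% higher and 6.67% lower). Without the library of high pituitary markers 2 were higher and 0 lower, where 2.05% of all genes tested were called. The 3 were Col26a1 (0.46 ± 0.10), Col2a1 (0.42 ± 0.11) and Col6a2 (0.39 ± 0.11). Of these, Col2a1 and Col26a1 were also among the collagens of the late comparisons, with log2 differences of 0.81 and 0.75 in late quiet unloading. For the title number, limma called 0 of 32 collagens and 0.877% of all genes tested, and 5 collagens and 20.7% of all genes had an unadjusted p below 0.05. The smallest was that of Col5a3, at 0.0016 before and 0.10 after adjustment in limma. It was highest at number 13 and lowest at number 1, a range of 0.46 on the log2 scale.

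The size of the differences went in part with a feature the rule did not use, the base composition of the transcripts, though members that moved lay at both ends of it. Median transcript GC was 57.2% for the 32 collagens and 50.1% for all genes tested. Over the 32, the Pearson correlation of GC with the log2 difference was 0.54 in late quiet unloading, 0.65 for noise among free-moving mice and -0.68 for late against early free-moving mice. Over 13535 genes the same correlations were 0.36, 0.32 and -0.30. For the log2 of transcript length, they were larger in size over those genes, at -0.467, -0.517 and 0.565. Over the 32 collagens the length correlations were 0.022, -0.101 and 0.206. Median transcript length was 5794 bases for the 32 collagens and 3416 for all genes tested. These values describe genes that share libraries. Of the 16 collagens above the median GC, 13 rose in late quiet unloading, and of the 16 below it 5 did. For noise in free-moving mice 13 above and 10 below rose, and in late against early free-moving mice 11 above and 9 below were lower. Col11a2 (62.9% GC), Col9a2 (62.7%) and Col16a1 (61.4%) stood at the high end, Col25a1 (45.9%) and Col8a1 (46.8%) at the low end, and Col1a2 (55.7%) between them. Col11a1 was an exception, a transcript of 48% GC that had the largest log2 difference in late quiet unloading. With a smooth trend of GC and length over all genes removed from every library, 18 collagens rose and 0 fell in late quiet unloading. There 7.81% of all genes rose and 7.33% fell. For noise in free-moving mice 27 collagens rose and 1 fell (27.5% and 29.3% of all genes). In late against early free-moving mice 1 rose and 29 fell (36.9% and 34.1% of all genes). In that processing 17 of the 18 calls in late quiet unloading, 24 of the 25 for noise in free-moving mice and 21 of the 23 for late against early were shared with the values above.

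**Figure D4:**
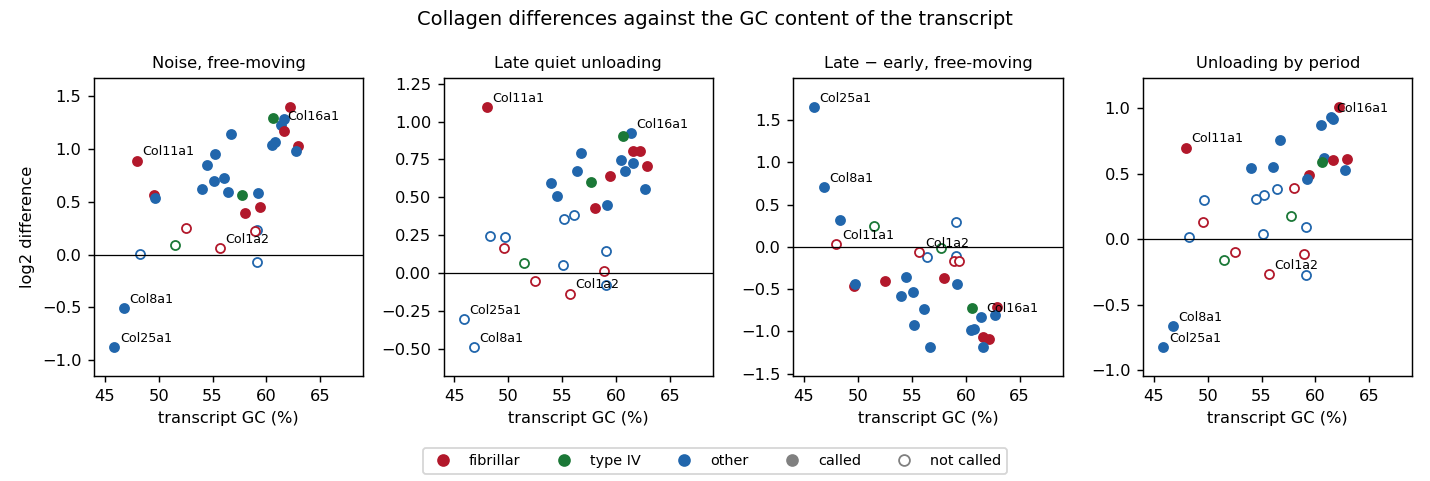
Log2 difference of each of the 32 collagens tested against the GC content of its transcript in 4 comparisons, coloured by class. High-GC members tend to lie higher in the panels of noise among free-moving mice and of late quiet unloading. In late against early free-moving mice they tend to lie lower. Col25a1 and Col8a1, at the low-GC end, lie on the other side of 0 in these 3 panels. In late quiet unloading Col11a1 (48% GC) lies highest and Col8a2 (59.1% GC) lies below 0.

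Within series, the collagens fell into sets that vary together. After the means of series and title number were removed, log2 levels over the 48 libraries were compared by Pearson correlation, as a description in which the genes share library and depth. Col1a2 went with Col3a1 (r = 0.86) and Col1a1 (r = 0.74), the chains of fibrils made by fibroblasts. Col4a1 went with Col4a2 (r = 0.85), but as closely with the fibrillar chain Col11a1 (r = 0.85) and the neuronal collagen Col25a1 (r = 0.82). Col11a2 went with Col16a1 (r = 0.77). Col1a2 had lower values with members of the other sets, 0.21 with Col4a2 and 0.12 with Col16a1. The other sets were not apart from each other, with 0.72 for Col4a2 and Col16a1 and 0.63 for Col11a1 and Col16a1. Partner chains of 1 molecule were not always close: Col6a1 and Col6a2 had r = 0.52, Col11a1 and Col11a2 0.49, and Col9a2 and Col9a3 0.25. The median over pairs was 0.37 among 10 fibrillar chains, 0.71 among 3 type IV chains and 0.21 among the 19 others.

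**Figure D5:**
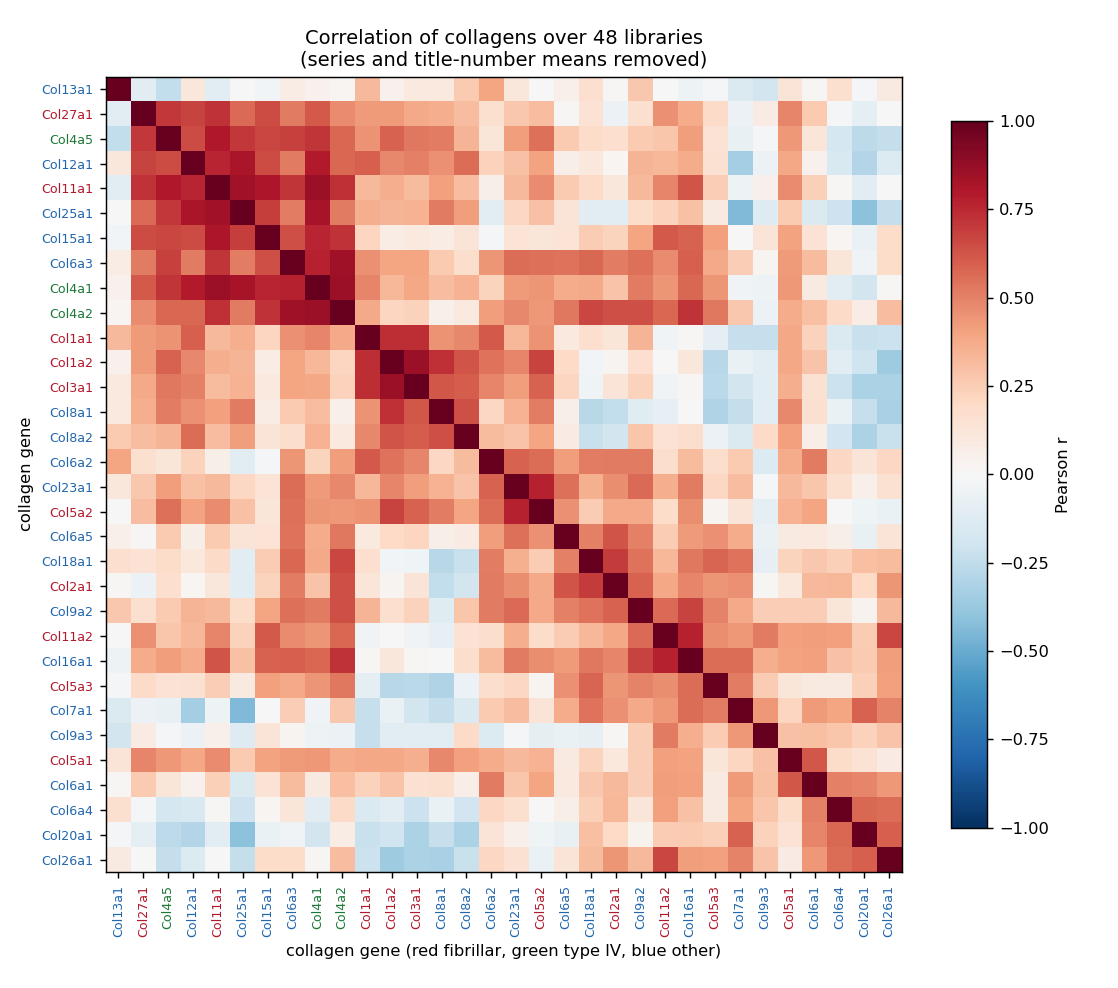
Pearson correlation of each pair of the 32 collagens tested over 48 libraries, after the means of series and title number were removed. Collagens are ordered by average-linkage clustering on these correlations, which sets members that vary together side by side. Label colours give the class. Col1a1, Col1a2 and Col3a1 form 1 block, while Col4a1 and Col4a2 are close to members of other classes such as Col11a1 and Col25a1.

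The genes outside the family that were most like the top chain of each class differed between classes. For Col1a2 they were Slc6a20a (r = 0.87), the small proteoglycan Bgn (0.85), Vtn (0.84), Gjb2 and Slc13a4 (both 0.83), Fmod (0.83), the collagen receptor Ddr2 (0.81) and Thbd (0.81). For Col4a2 they were Sema4g and Fbrs (both 0.91), Ubr4 (0.90), Pxn, Tspoap1, Plxna3 and Gon4l (each 0.88) and Baiap3 (0.87). For Col9a2 they were Slc16a11 and Ltbp3 (both 0.79), Prpf40b and Dpysl4 (both 0.75), and Pxn, Hsf1 and Ebf4 (each 0.72). All were computed over the 48 libraries in the same way. Markers were averaged as log2 levels after the same means were removed, each scaled by its own SD. Against that mean of the fibroblast markers, r was 0.85 for Col1a2 and 0.81 for Col3a1, but 0.17 for Col4a2, 0.14 for Col16a1 and -0.26 for Col5a3. The mean of the mural markers had r = 0.78 with Col4a1 and 0.77 with Col25a1. It also had 0.70 with Col3a1, 0.68 with Col1a1 and 0.65 with Col1a2. Several members also varied with the mitochondrial share within series, with r of -0.81 for Col25a1, -0.71 for Col11a1 and -0.68 for Col4a1 against its log2 odds, and 0.33 for Col2a1 and 0.30 for Col7a1.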

How the data were processed

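Hypothalamus RNA of 3 mice was pooled for each of 48 libraries. The authors deposited RPKM values per gene symbol. CASAVA 1.8 and HISAT were used, per the submitters' processing notes, and a version of HISAT is not given. Build and annotation were likewise not given in the sources used here. From the steps between low RPKM values, depth was estimated at 28.4 to 55.2 M reads a library (median 38.1). Of values up to 12 reads, 62.5% to 68.5% were whole within 0.02 reads, against 4.0% by chance, too few for a count test. No library was identical to another, and the highest correlation between any 2 was 0.995.

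Tests used limma 3.58.1 in R 4.3.3 on log2(RPKM + 0.5), with 13685 genes of mean RPKM at least 0.5, terms for series and title number, 35 residual degrees of freedom and Benjamini-Hochberg adjustment over all genes. Fold changes on this scale understate those of low genes. Intervals span 2 standard errors. Nothing states that libraries came from separate cohorts, so p-values measure only the spread between pools. The script was tested on simulated data. Transcript GC and length came from GENCODE M21 (21191 of 21558 genes matched, 98.9% of those tested with values), and promoters from RefSeq.

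The members and lists were chosen with earlier results of these data known. Genes named were the 3 fibrillar, 2 type IV and 5 other collagens of highest mean RPKM, up to 6 further called collagens per comparison by p, and up to 3 called genes per pathway list. The 8 genes most correlated with the top chain of each class were named as well, apart from 1 that is not reported here. Collagens named beyond these were chosen after their values were seen. Alternatives were the pseudocount, filter, scaling, mitochondrial terms, title number term and left-out libraries.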

Additional observations from a re-analysis of the deposited data

Results flagged for a closer look

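Among 104 checks of the 6 values of a series, 7 had 1 library far from the other 5, where chance gives about 1 in 20. Title number 1 of early unloaded series a held 5.04 RPKM of Col4a1, with the next library at 9.475, and 20.08 RPKM of summed type IV collagen, with the next at 29.11. In title number 21 of the same series Col9a2 was high at 17.34 RPKM. Title number 1 was high for Col9a2 in early free-moving series b, at 20.91 RPKM, and for Col9a3 in early free-moving series a, at 12.76 RPKM. In late free-moving mice under noise, title number 5 was low for Col16a1, at 7.741 RPKM, and for the summed other collagens, at 74.55 RPKM.

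Unloading effects differed between noise and quiet, by the test of the difference itself in limma, in these named collagens (log2 difference under noise minus that in quiet): Col11a1 -1.472, Col4a2 -1.268, Col16a1 -1.20, Col2a1 -1.146, Col15a1 -0.967, Col7a1 -0.908, Col26a1 -0.897, Col6a3 -0.897, Col4a1 -0.865, Col11a2 -0.828 and Col9a2 -0.697. Between late and early quiet mice (late minus early), they differed in Col2a1 by 1.009, Col16a1 by 0.933, Col7a1 by 0.920, Col26a1 by 0.876, Col6a1 by 0.760, Col18a1 by 0.618, Col11a2 by 0.614, Col5a3 by 0.609, Col4a2 by 0.589, Col20a1 by 0.554, Col9a2 by 0.531 and Col9a3 by 0.463. In Col25a1 the difference was -0.826. Both tests include the late quiet free-moving series.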

How the results depend on the processing

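Called collagens in late quiet unloading (18 reported) numbered 18 to 22 with other settings and 12 to 18 with 1 title number left out. For noise in free-moving mice (25) they numbered 25 to 29 and 25, for late against early free-moving mice (23) 23 to 30 and 22 to 23, and for late unloading under noise 0 throughout. Early unloading (5) gave 3 without the filter, 2 with mitochondrial genes removed, 0 with the mitochondrial covariate, 2 from the series compared alone, 7 with quantile normalization, 11 with the GC and length trend removed (chosen after the data were seen) and 2 without library 9 of series a. Its single series gave 5 (a against a), 10 (a against b), 0 (b against a) and 0 (b against b), and leaving out a title number 0 to 9. Noise in unloaded mice (7) gave 19 with quantile normalization, 11 with mitochondrial genes removed, 0 with the covariate, 24 with the trend removed and 2 to 13 with a title number left out. Late against early unloaded mice (12) gave 7, 19 and 6 to 13 under the covariate, the trend removal and the left-out numbers. The late minus early unloading difference (17) gave 9 to 17, and the noise minus quiet one (14) 2 to 14, with a number left out. The same-label series (3) gave 8 with quantile normalization, 1 with the covariate, 1 from those series alone, 8 with the trend removed and 0 to 6. The title number (0) gave 1 with quantile normalization, 1 with mitochondrial genes removed, 1 with the trend removed and 1 as a sine and cosine of period 24. The share of all genes tested that was called moved with the settings as well. In early unloading it ran from 0% without title number 17 to 64.7% without 1. For noise in unloaded mice it ran from 0% with the covariate to 56.4% without 5.

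Without the title number as a replicate block, the counts were 4 for early unloading, 18 for late quiet unloading, 0 for late unloading under noise, 25 and 6 for noise in free-moving and unloaded mice, 23 and 11 for late against early in free-moving and unloaded mice, 13 and 16 for the noise and period differences, and 3 for the same-label series. The labels do not say that a number pairs mice.

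Signs turned in several comparisons, and those named here are not all. In early unloading 25 of the 32 collagens lay above 0, and with the trend removed only Col4a1, Col11a1 and Col25a1 did. Named collagens that turned there were Col11a2 (-0.243), Col6a1 (-0.237), Col9a2 (-0.226), Col1a1 (-0.192), Col1a2 (-0.172), Col4a2 (-0.016) and Col15a1 (-0.010). With the covariate the sign turned for Col11a1 in early unloading (-0.046) and in noise among unloaded mice (0.001). With the trend removed, late against early also turned for Col12a1 (-0.723 in free-moving and -0.190 in unloaded mice) and Col8a1 (-0.095 in free-moving mice). In unloaded mice it turned for Col4a1 (-0.119) and Col16a1 (-0.115) as well. Noise in unloaded mice turned for Col1a1 (0.189) and Col4a1 (0.045). The causes were not tested. Depth limits the 12 members below the filter most.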

Other observations

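Collagens too low to be tested were described by series means. Col24a1, a fibrillar chain with a mean of 0.475 RPKM, was at 0.751 RPKM in late quiet unloaded mice and 0.352 RPKM in late quiet free-moving mice, with 0.550 and 0.592 RPKM in the unloaded and free-moving series under noise. Col19a1, a FACIT-like collagen, was at 0.629 RPKM in late quiet unloaded and 0.578 RPKM in late quiet free-moving mice, against 0.202 RPKM in early unloaded and 0.137 RPKM in early free-moving mice. Col10a1, the collagen of hypertrophic cartilage, was listed at 0 in 15 libraries.

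Choroid plexus markers were high in single late quiet libraries, with sums up to 352.8 RPKM in late quiet unloaded and 491 RPKM in late quiet free-moving mice, against medians of 77.4 and 77.5 RPKM. Thalamus markers spread over 41.3 to 129.6 RPKM in late quiet unloaded and 45.7 to 175.6 RPKM in late quiet free-moving mice, beside 34.8 to 62.5 RPKM in both late series under noise. The part of either in the collagen values was not tested.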
